A study of Mus musculus with 10 samples.

Results

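The integrated stress response and amino acid synthesis were followed through 10 genes on 10 arrays of mouse skeletal muscle. They were taken by their platform symbols from a fixed list, which gave 10 of the 19938 genes with a probe set of their own: Atf4, Atf3, Ddit3, Trib3, Asns, Psat1, Phgdh, Chac1, Sesn2 and Fgf21. Each has 1 probe set of its own on the Mouse Gene 1.0 ST array, and only that probe set was read. All mice were of the strain the labels call C56BL6N. In tibialis anterior (TA), 10 µg of an shRNA plasmid had been introduced into the muscle of 8-week-old mice by electroporation, and GFP-positive fibers were dissected 2 weeks later. Of the TA arrays, 2 carried the shRNA against linc-MYH (shlinc-MYH), a long non-coding RNA next to the fast myosin genes, and 2 carried a control vector, which per the methods encoded an shRNA against LacZ and was placed in the opposite leg. Both TA groups therefore share electroporation, GFP and selection of green fibers. In gastrocnemius, 3 arrays came from 8-week-old cSix1 KO mice and 3 from wild type controls. The cSix1 KO mice are conditional knockouts made with HSA-CRE, in which the human skeletal actin promoter drives the recombinase, which restricts the deletion to muscle fibers. The question was what each loss does to muscle gene expression.

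The integrated stress response starts when a kinase phosphorylates the translation initiation factor eIF2alpha. General translation then slows, while the mRNA of Atf4, a bZIP transcription factor, is translated better. Atf4 and its partners switch on genes for amino acid synthesis, amino acid transport and tRNA charging, and also feedback and death genes such as Trib3, Chac1 and Ddit3. Because Atf4 is controlled mainly through translation, an array that reads mRNA does not measure its activity. In muscle the response is known from mitochondrial disease, fasting and amino acid shortage, where Fgf21 and the serine synthesis enzymes are common readouts.

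The promoters of these genes are shown first because the C/EBP-ATF composite element is the letter pattern by which Atf4 dimers are known to bind. The pattern TGATGNAAN was searched on both strands of RefSeq promoter windows (GRCm38.p6) that reach from 250 bases before to 50 bases after each start. It stood upstream of the start in 4 of the 10 genes: Atf3, Asns, Chac1 and Fgf21. Among all 32851 windows, 3.44% held it upstream, and 3.95% held it anywhere. Each stretch is printed 5′ to 3′ on the strand of its gene, with the match in capitals.
Atf3, chr1:191183406-191183474, minus strand: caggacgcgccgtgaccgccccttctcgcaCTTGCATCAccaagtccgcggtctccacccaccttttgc
Asns, chr6:7693210-7693262, minus strand: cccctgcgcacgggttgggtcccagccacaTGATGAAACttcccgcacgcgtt
Chac1, chr2:119351018-119351086, plus strand: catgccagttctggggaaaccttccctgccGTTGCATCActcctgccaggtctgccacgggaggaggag
Fgf21, chr7:45615592-45615660, minus strand: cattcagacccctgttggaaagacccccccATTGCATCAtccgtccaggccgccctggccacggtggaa
In Asns the pattern runs with the gene. In Atf3, Chac1 and Fgf21 it lies on the opposite strand, so the capitals show its reverse complement. The Trib3 window held 1 match, downstream of the start. The windows of Atf4, Ddit3, Psat1, Phgdh and Sesn2 held none, which says only that these letters are not in these windows. A match is a description of sequence and not of binding.

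The arrays were checked before the members were read. The muscle genes Acta1, Ckm, Myh4 and Pvalb stood at or above percentile 99.8 of all genes in the controls of both tissues. Slow fiber markers were higher in cSix1 KO gastrocnemius for 8 of 8 genes, all 8 called, and higher in shlinc-MYH TA for 7 of 8 genes, none called. No probe set carried linc-MYH alone in the annotation used, so its level was not analysed here. The median signal per array was 5.09 to 5.14 in TA and 6.60 to 6.67 in gastrocnemius on the log2 scale, and no level was compared between the tissues. Signals are RMA values, which have no true zero and are comparable for 1 probe set across the arrays of a tissue, but not between genes. For transfected muscles the methods speak in general of different mice in a condition, without tying them to these arrays. For gastrocnemius nothing states that the arrays of a group are separate animals. The p-values measure the spread between these arrays, which may in part be technical. In such bulk RNA, fewer cells of a type and less RNA per cell cannot be told apart.

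In shlinc-MYH TA, 5 of the 10 genes lay above the controls on every array: the stress transcription factor Atf3, the feedback pseudokinase Trib3, asparagine synthetase (Asns), the serine synthesis enzyme Psat1 and the glutathione-degrading enzyme Chac1. None lay below the controls on every array. The differences of largest size were those of Asns, at 1.98-fold, and Atf3, at 1.85-fold. The size of the Asns value depended on the shRNA arrays. Its log2 fold change of 0.99 became 0.43 without the shlinc-MYH array numbered 2 and 1.55 without that numbered 1, against 0.61 and 1.16 for Atf3. The Atf3 value depended more on the controls. Without the control numbered 2 and that numbered 1 it was 0.55 and 1.22, against 0.97 and 1.00 for Asns. None of the 10 passed the test over all genes (limma, adjusted p under 0.05), where 0.0150% of genes, 3 in number, did. The same count without overlap in the higher direction was 16.3% of all genes, and in the lower direction 23.0%.

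**Figure D1:**
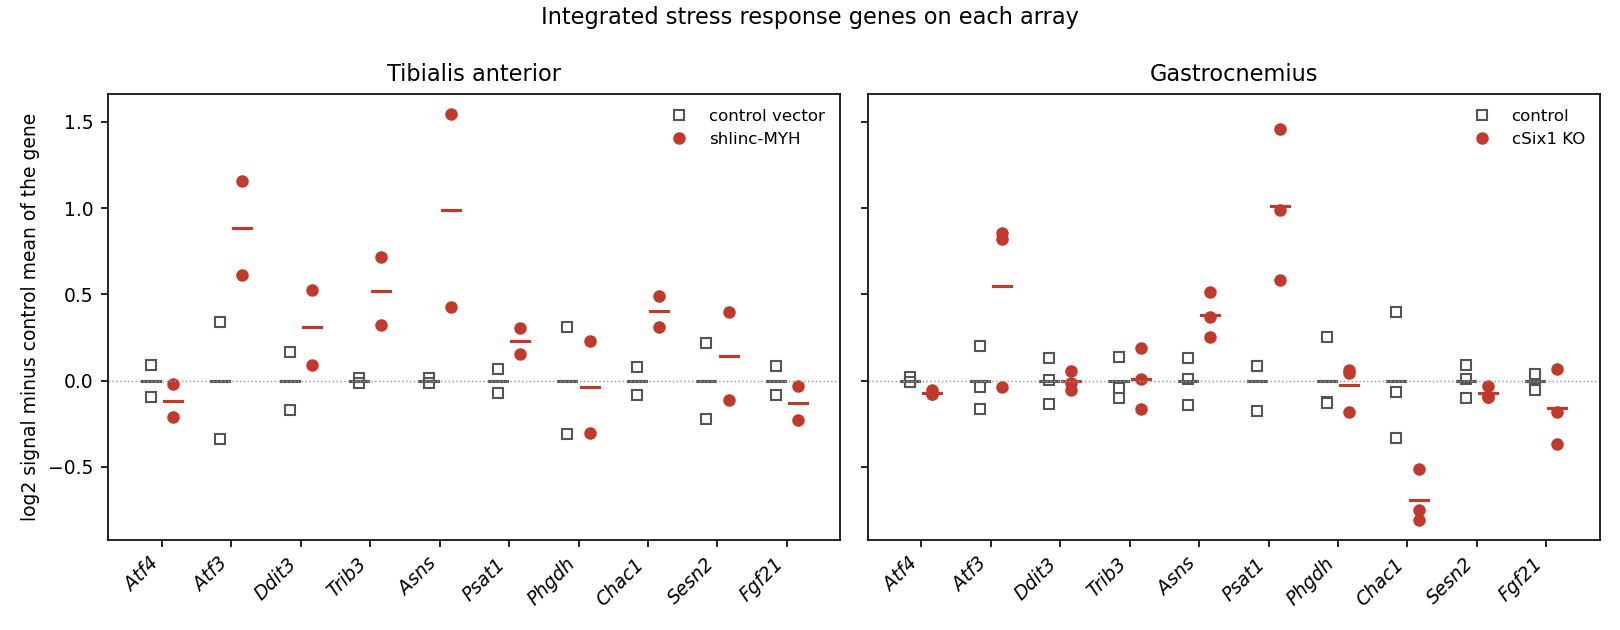
Each of the 10 genes on each array; the vertical axis is its log2 signal after subtraction of the gene's own control average in the tissue; squares are controls, circles are shlinc-MYH or cSix1 KO arrays, and bars are group means. In TA both shlinc-MYH arrays lie above both control arrays for Atf3, Trib3, Asns, Psat1 and Chac1, and in gastrocnemius all 3 cSix1 KO arrays lie above the controls for Psat1 and Asns and below them for Chac1.

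Among the transcription factors, Atf4 itself read 7.36 and 7.55 on the control TA arrays and 7.25 and 7.44 on the shlinc-MYH arrays (log2 signal). The groups overlapped, with a log2 fold change of -0.12 (SE 0.14, adjusted p = 0.858). Atf3, an early stress factor that damage and growth signals also induce, read 6.59 and 5.92 in controls against 6.87 and 7.41. Its lowest array with the shRNA stood 0.28 above the highest control, and its log2 fold change was 0.89 (SE 0.27, adjusted p = 0.494). Ddit3, which encodes the death-linked factor CHOP, read 6.88 and 7.21 in controls against 7.14 and 7.57, and its groups overlapped (log2 fold change 0.31, SE 0.19, adjusted p = 0.705).

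Trib3, which binds Akt and restrains Atf4, read 5.03 and 5.00 in controls against 5.34 and 5.73 with the shRNA. Here the controls were close together and both shRNA arrays were higher, by 0.52 on the log2 scale on average (SE 0.16, adjusted p = 0.494). Chac1 read 6.45 and 6.61 against 7.02 and 6.84, with a log2 fold change of 0.40 (SE 0.13, adjusted p = 0.517). Sesn2, a leucine-binding inhibitor of mTORC1, read 4.47 and 4.91 against 4.58 and 5.09. Its groups overlapped, and in each of them the array numbered 2 was the higher (log2 fold change 0.14, SE 0.22, adjusted p = 0.903). Fgf21, the secreted hormone of the set, read 4.79 and 4.96 against 4.84 and 4.64 and also overlapped (log2 fold change -0.13, SE 0.13, adjusted p = 0.839). Sesn2 and Fgf21 were dim, with control means at percentiles 35.2 and 39.4 of all genes.

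Asns makes asparagine from aspartate and glutamine. It read 5.01 and 4.98 on the control TA arrays and 5.43 and 6.54 on the shlinc-MYH arrays. The control mean of Asns was low, at percentile 42.6 of all genes. Both shRNA arrays were above both controls, but they were 1.12 apart from each other, against 0.03 between the controls. The log2 fold change of 0.99 had an SE of 0.33 and a 95% confidence interval from 0.18 to 1.80 (limma, adjusted p = 0.521). Psat1, the transaminase of the serine pathway, read 4.64 and 4.78 against 5.01 and 4.86 (log2 fold change 0.23, SE 0.13, adjusted p = 0.665). Phgdh, which commits carbon to the same pathway, read 5.84 and 5.22 against 5.23 and 5.76. The Phgdh groups covered nearly the same range (log2 fold change -0.04, SE 0.26, adjusted p = 0.988).

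At an unadjusted p under 0.05, 4 of the 10 genes passed in TA (Atf3, Trib3, Asns and Chac1), beside 8.65% of all genes. The median log2 fold change of the 10 was 0.27, beside -0.03 for all genes, and 7 of them were above 0, beside 8716 of all 19938 genes. With 2 arrays a group, the interval of every member was wide, and for Atf4, Ddit3, Psat1, Phgdh, Sesn2 and Fgf21 it included 0. Markers of regenerating fibers and of other cells also shifted between the TA groups, with none called, although the TA samples were dissected fibers. The 8 satellite cell and regenerating fiber markers had a summed linear signal of 468 to 592 in controls and 1014 to 1436 with the shRNA. Of these 8, 7 were above 0 and 6 lay above the controls without overlap. The satellite cell genes Pax7 and Myf5 overlapped the controls, with log2 fold changes of -0.06 and 0.03. Those without overlap were Myod1, Myog, Mymk, Myh3, Myh8 and Chrng, with log2 fold changes from 0.54 (Myod1) to 1.81 (Myh3). Whether the rise of the sum reflects more satellite cells was not tested. The summed signal of the 10 endothelial markers was 1426 to 1478 in controls and 749 to 1143 with the shRNA, with 0 of the 10 above 0. Of 7 adipocyte markers 0 were above 0. The part of any of these in the stress gene values was not tested.

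In cSix1 KO gastrocnemius the genes divided. Psat1 and Asns lay above all controls on all 3 KO arrays, Chac1 and Atf4 lay below all controls, and the other 6 overlapped. Psat1 had the largest difference, at 2.02-fold, and Chac1 the largest in the other direction, at 0.620-fold. None of the 10 passed the test (limma, adjusted p under 0.05), which 1.74% of all genes did, 181 of them higher and 166 lower (142 and 247 after median centring). Over all genes, 11.0% lay wholly above the controls and 9.85% wholly below.

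Psat1 read 6.72, 6.46 and 6.72 on the control arrays and 8.10, 7.63 and 7.22 on the cSix1 KO arrays. The groups were separated by 0.50, and the KO arrays were more spread than the controls. The log2 fold change was 1.01 (SE 0.20, 95% confidence interval 0.55 to 1.47), with an adjusted p of 0.0534, just above the threshold. Without the cSix1 KO array numbered 3, the lowest of its group, the adjusted p was 0.0118 and the log2 fold change 1.22. Psat1 was also called when dim genes were left out (adjusted p = 0.0404), in a fit over all 10 arrays (0.0239), with an intensity trend and robust prior (0.0406) and with array weights (0.00922). It was not called after quantile normalization (adjusted p = 0.0608) or median centring (0.0544), or with the mean over probe sets (0.0538). The replicate block (0.0665) and the methods' t-test (0.282) did not call it either. Without each of the other 5 arrays in turn it was also not called (0.0937 to 0.194). Phgdh, the step before it in the serine pathway, read 7.36, 7.74 and 7.35 in controls against 7.30, 7.54 and 7.52, with overlapping groups and a log2 fold change of -0.03 (SE 0.12, adjusted p = 0.962).

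Asns read 7.47, 7.60 and 7.32 in controls and 7.72, 7.98 and 7.83 in cSix1 KO muscle. All 3 KO arrays were above all 3 controls, with a log2 fold change of 0.38 (SE 0.10, adjusted p = 0.112). With array weights the Asns difference was called (adjusted p = 0.0415), but genes called over all rose from 347 to 989 there. Under every other alternative it was not called, with adjusted p from 0.0697 (dim genes left out) to 0.587 (all 10 arrays in 1 fit). By the methods' t-test it was 0.308.

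Chac1 read 9.77, 10.03 and 10.50 on the control arrays and 9.58, 9.29 and 9.35 on the cSix1 KO arrays. The controls were the more spread group here, and every KO array was below every control. The log2 fold change was -0.69 (SE 0.17, 95% confidence interval -1.09 to -0.29, adjusted p = 0.107). Trib3 read 6.86, 7.10 and 6.92 against 6.80, 6.97 and 7.15, with overlapping groups and a log2 fold change of 0.01 (SE 0.11, adjusted p = 0.983). Sesn2, between 6.45 and 6.64 on all 6 arrays, had a log2 fold change of -0.07 (SE 0.07, adjusted p = 0.740). Fgf21 read 5.87, 5.93 and 5.96 in controls and 5.55, 5.74 and 5.99 in KO muscle. On 2 KO arrays it was below the controls and on 1 above (log2 fold change -0.16, SE 0.11, adjusted p = 0.585).

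Atf4 read 8.46, 8.49 and 8.46 in control gastrocnemius and 8.42, 8.40 and 8.40 in cSix1 KO. The groups did not overlap, but the log2 fold change was only -0.07 (SE 0.06, 95% confidence interval -0.21 to 0.07, adjusted p = 0.686). Ddit3 lay between 7.59 and 7.86 on all 6 arrays, with a log2 fold change of -0.0047 (SE 0.08, adjusted p = 0.990). Atf3 read 7.67, 8.03 and 7.79 in controls and 8.65, 8.69 and 7.80 in KO muscle. On 2 KO arrays it stood well above the controls and on the array numbered 3 among them, which gave a log2 fold change of 0.55 (SE 0.23, adjusted p = 0.312). Without that array the value was 0.84 (adjusted p = 0.0155), and with array weights it was 0.81 (adjusted p = 0.0276). Genes called over all rose there too, from 347 to 560 and 989. Under every other alternative Atf3 was not called, with adjusted p from 0.213 (dim genes left out) to 0.634 (without the cSix1 KO array numbered 1). By the methods' t-test it was 0.563.

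**Figure D2:**
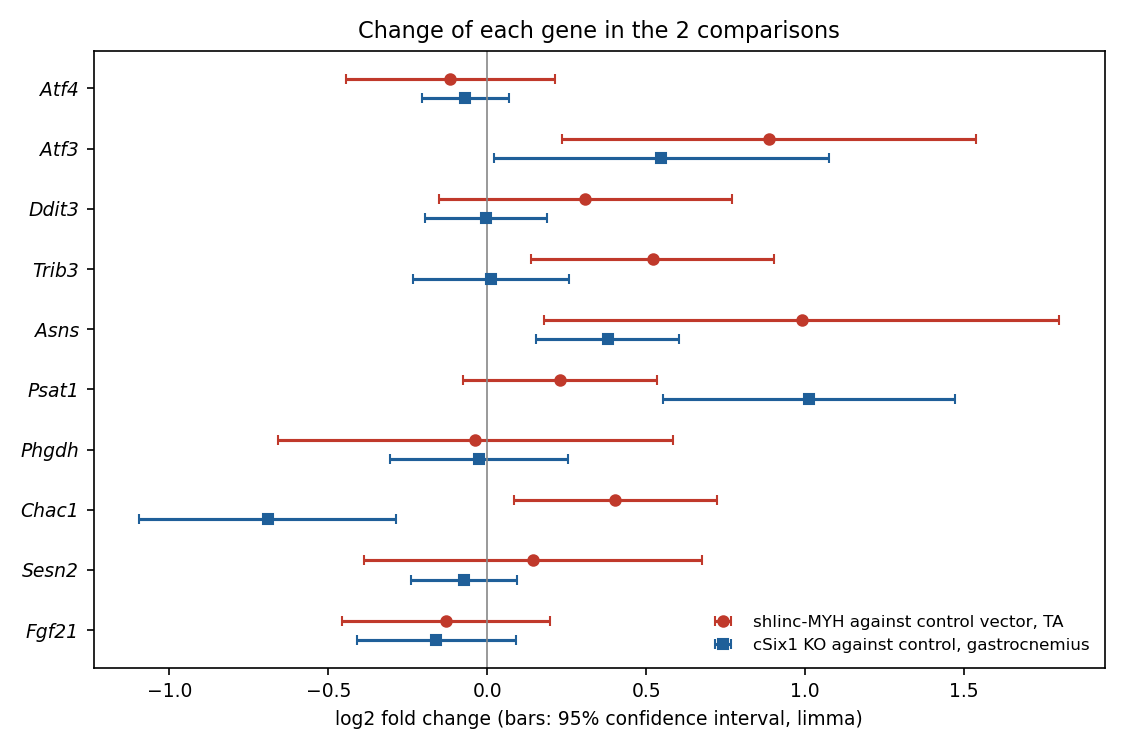
Log2 fold change of each gene for shlinc-MYH against control vector in TA (circles, 2 arrays a group) and for cSix1 KO against control in gastrocnemius (squares, 3 arrays a group), with 95% confidence intervals from limma. The intervals of Chac1 lie on opposite sides of 0 in the 2 comparisons, those of Asns and Atf3 lie above 0 in both, and those of Atf4, Ddit3, Phgdh, Sesn2 and Fgf21 include 0 in both.

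At an unadjusted p under 0.05, 4 of the 10 passed in gastrocnemius (Atf3, Asns, Psat1 and Chac1), beside 14.9% of all genes. The median log2 fold change of the 10 was -0.02, beside 0.01 for all genes, and 4 were above 0, beside 10521 of all 19938 genes. Macrophage markers moved with the genotype: 12 of 12 were above 0, with a median log2 fold change of 0.59. Their summed linear signal was 3918 to 4658 in controls and 9060, 5903 and 5768 on the KO arrays numbered 1, 2 and 3. Psat1 had the same order on these 3 arrays. The 8 satellite cell and regenerating fiber markers were all above 0, with 4 called. They summed to 1313 to 1423 in controls and to 2529, 2291 and 1731 on the KO arrays in turn. Psat1 had this order too. Neutrophil and fibroblast markers were above 0 for 8 of 8 genes each, with none called, and their sums did not have this order. The sum over 21 immediate early genes, such as Fos and Egr1, was 10628 on the third KO array, where Atf3 was at the control level, against 15132 and 13634 on the other KO arrays and 9653 to 14849 in controls. The part of these cells or of immediate early signals in the stress gene values was not tested.

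The comparisons share no array, so their difference could be fitted across all 10 arrays. Chac1 differed most: its log2 fold change was 0.40 in TA and -0.69 in gastrocnemius, a difference of 1.09 (SE 0.26, 95% confidence interval 0.53 to 1.66), which did not pass over all genes (limma, adjusted p = 0.156). Psat1 differed by -0.78 (SE 0.28, adjusted p = 0.306), being the larger in gastrocnemius. It was dim in TA, with a control mean at percentile 35.5 of all genes, and the filter on dim genes left it out of this difference. The part of its low TA signal in the difference was not tested. Trib3 differed by 0.51 (SE 0.19, adjusted p = 0.319), being the larger in TA, where its control mean stood at percentile 43.0. The difference for Asns was 0.61 with an interval from -0.15 to 1.37 (adjusted p = 0.501), and that for Atf3 was 0.34 with an interval from -0.54 to 1.21 (adjusted p = 0.796). None of the 10 differences was called, beside 0.145% of all genes. At an unadjusted p under 0.05 there were 3 (Trib3, Psat1 and Chac1), beside 12.3% of all genes. Because the knockdown and the knockout were made in different muscles, by different routes and at different times, target and tissue cannot be told apart in these differences.

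The genes around the response were read as 9 lists, whose counts above 0 stand beside those of all genes given earlier for each muscle. Upstream, 15 genes for eIF2alpha kinases, their phosphatase subunits and the initiation factors eIF2 and eIF2B had a median log2 fold change of 0.15 in TA, with 12 above 0, and of 0.01 in gastrocnemius, with 8 above 0. None was called in either. Eif2b3, a subunit of the exchange factor that recycles eIF2, had a log2 fold change of 0.62 in TA (SE 0.22, adjusted p = 0.531). Eif2s2, the beta subunit of eIF2, had one of -0.31 in gastrocnemius (SE 0.07, adjusted p = 0.0729). Of 9 bZIP partners and regulators, 7 were above 0 in TA and 5 in gastrocnemius, and none was called. Nupr1, a small stress-induced chromatin protein, had log2 fold changes of 0.46 in TA and 0.27 in gastrocnemius, with no overlap in either.

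**Figure D3:**
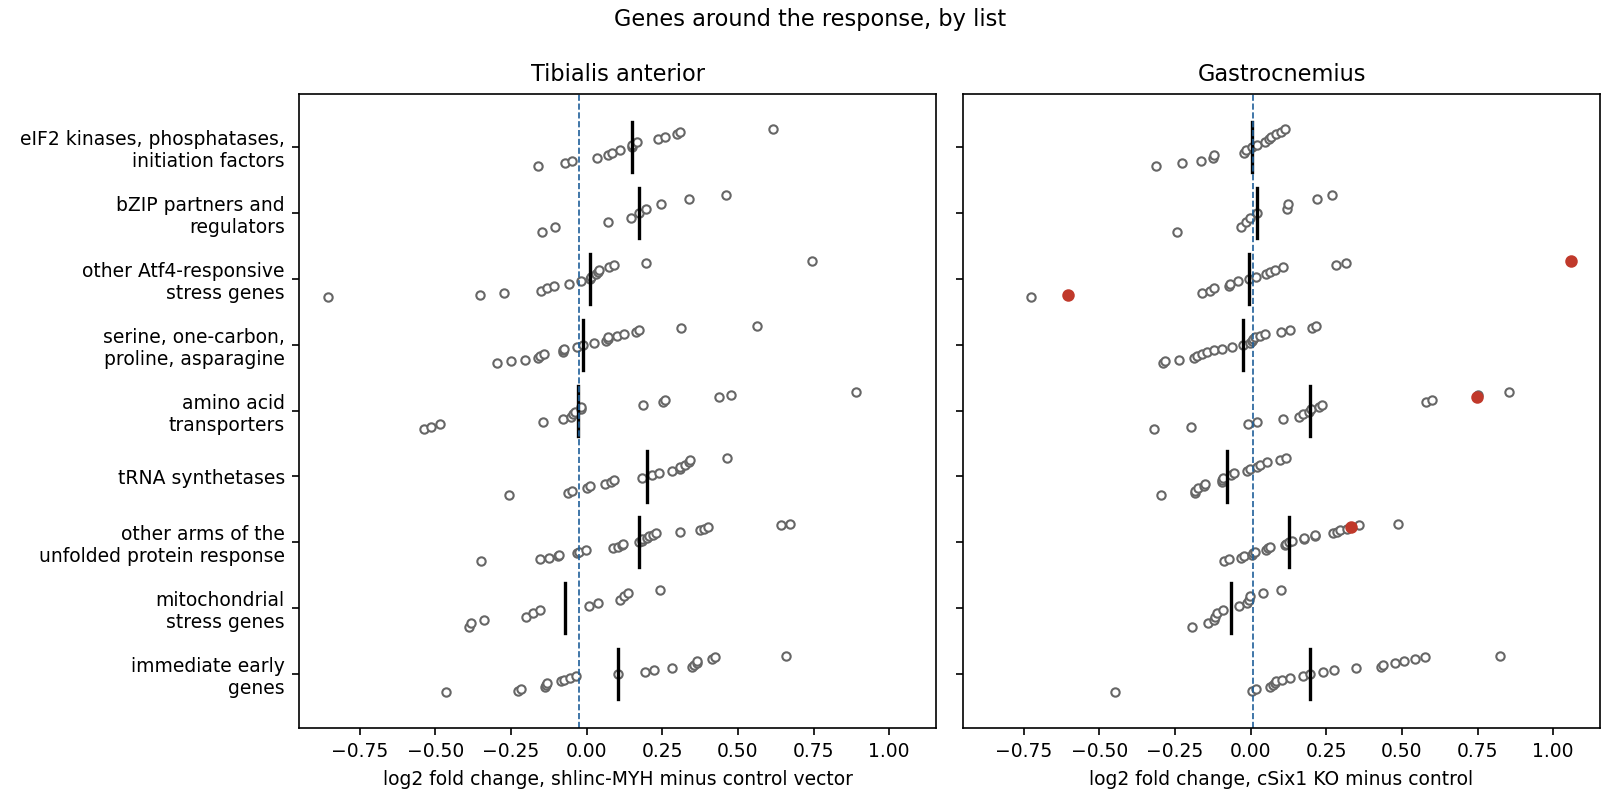
Log2 fold change of every measured gene of the 9 lists in TA and in gastrocnemius; each circle is a gene, red circles are genes called by limma at an adjusted p under 0.05, black bars are list medians and the dashed line is the median of all genes. Among these lists called genes are seen only in gastrocnemius, where Gadd45a, Slc43a2 and Ern1 are higher and Gadd45b is lower.

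The other Atf4-responsive stress genes held the clearest changes, both in gastrocnemius. Gadd45a, a growth arrest gene that Atf4 is known to induce in muscle atrophy, rose in cSix1 KO muscle. It read 8.92, 8.59 and 8.79 in controls and 10.05, 9.78 and 9.64 in KO, a log2 fold change of 1.06 (SE 0.12, adjusted p = 0.00954). In TA, Gadd45a read 8.33 and 8.09 in controls and 8.96 and 8.95 with the shRNA, at 0.74 (SE 0.13), and did not pass (adjusted p = 0.306). Its sister gene Gadd45b fell in cSix1 KO muscle, from 8.91, 8.98 and 8.82 to 8.34, 8.24 and 8.32, with a log2 fold change of -0.60 (SE 0.07, adjusted p = 0.00954). Gadd45b read 6.38 and 6.76 against 5.50 and 5.93 in TA, at -0.85 (SE 0.20, adjusted p = 0.433). Thus Gadd45a arrays lay wholly above, and Gadd45b arrays wholly below, the controls of each muscle. Without the cSix1 KO array numbered 2 the adjusted p was 0.0502 for Gadd45a and 0.0556 for Gadd45b. By the methods' t-test neither was called (adjusted p = 0.163 and 0.121). In 1 fit over all 10 arrays Gadd45b was also called in TA (adjusted p = 0.0405), whereas Gadd45a was not (0.0542). Of the 17 genes measured, 1 was called higher and 1 lower in gastrocnemius and 0 in TA, with medians of 0.01 in TA and -0.01 in gastrocnemius.

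**Figure D4:**
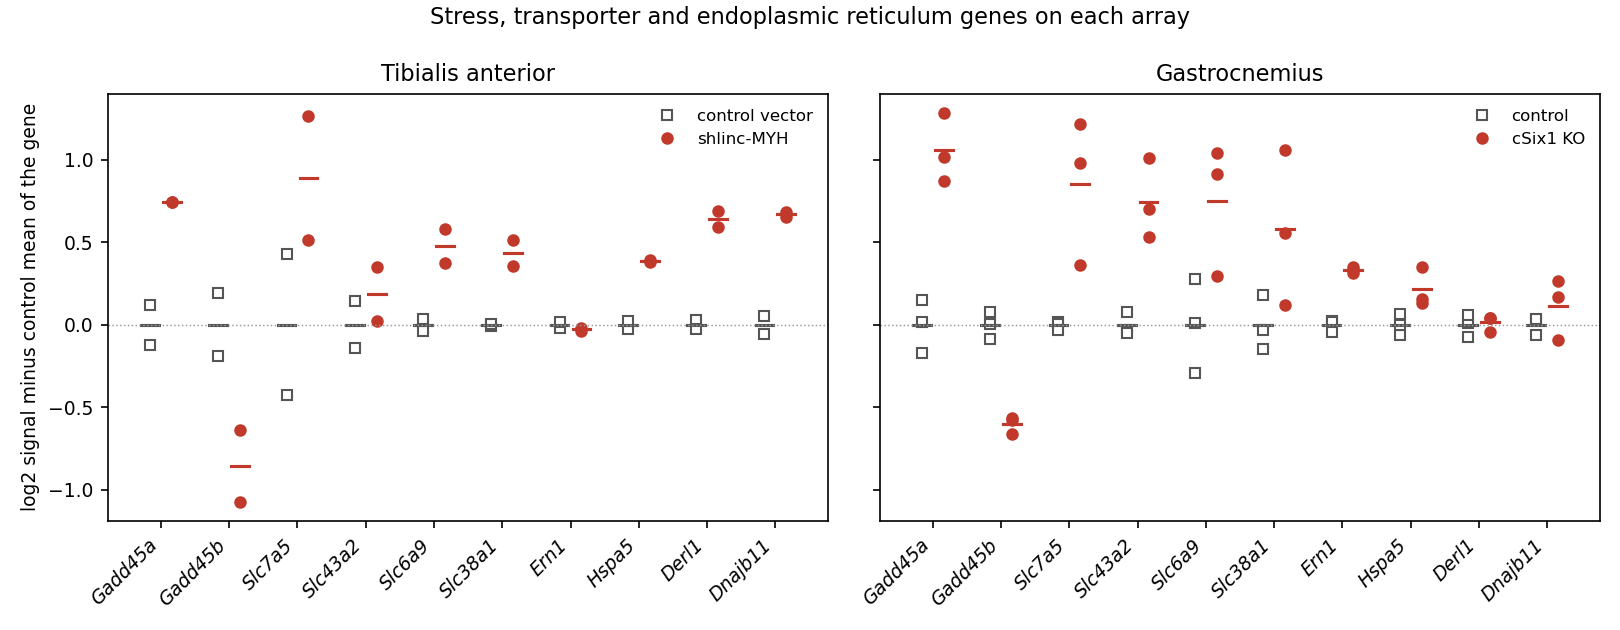
Stress, transporter and endoplasmic reticulum genes, 10 in all, on each array; the vertical axis is the log2 signal after subtraction of the gene's control average in the tissue; squares are controls, circles are shlinc-MYH or cSix1 KO arrays and bars are means. Gadd45a is above and Gadd45b below the controls on every array of both tissues, whereas Derl1 and Dnajb11 are above the controls without overlap in TA but overlap them in gastrocnemius.

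Among 16 amino acid transporters, 13 were above 0 in gastrocnemius and 6 in TA, with medians of 0.20 and -0.03. Slc43a2, a carrier of large neutral amino acids, rose in cSix1 KO muscle: it read 7.94, 7.83 and 7.81 in controls and 8.87, 8.56 and 8.39 in KO (log2 fold change 0.75, SE 0.12, adjusted p = 0.0263). Without each of the controls in turn, or without the KO array numbered 2, its adjusted p lay between 0.0801 and 0.120, and by the methods' t-test it was 0.203. Slc7a5, the leucine carrier LAT1, had similar log2 fold changes in both muscles, 0.89 in TA (SE 0.34, adjusted p = 0.549) and 0.85 in gastrocnemius (adjusted p = 0.0771), and passed in neither. On the KO arrays Slc7a5 read 9.32, 9.08 and 8.47, against 8.08 to 8.12 in controls. The glycine carrier Slc6a9 and the glutamine carrier Slc38a1 had log2 fold changes of 0.48 and 0.44 in TA and 0.75 and 0.58 in gastrocnemius, also not called.

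Serine, glycine, one-carbon, proline and asparagine enzymes beyond the 10 members were divided evenly. Of 21 measured, 10 were above 0 in TA and 9 in gastrocnemius, with medians of -0.01 and -0.02, and none was called. Mthfd2, the mitochondrial folate enzyme often read as an Atf4 target, had a log2 fold change of 0.56 in TA (SE 0.18, adjusted p = 0.515) and of -0.02 in gastrocnemius. Psph, which completes serine synthesis after Psat1, stood at 0.31 in TA (SE 0.14, adjusted p = 0.616). In gastrocnemius Psph stood at -0.09 (SE 0.06, adjusted p = 0.588), with every KO array below every control. Aldh1l2 and Glul, for mitochondrial folate oxidation and glutamine synthesis, stood at -0.24 and -0.28 in gastrocnemius (adjusted p = 0.223 and 0.253).

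The cytosolic tRNA synthetases had medians of opposite sign. Of 18 measured, 15 were above 0 in TA (median 0.20) and 5 in gastrocnemius (median -0.08), and none was called in either. Gars, the glycyl-tRNA synthetase, stood at 0.46 in TA (SE 0.16, adjusted p = 0.521). For Iars, the isoleucyl enzyme, the log2 fold change was 0.31 in TA and -0.15 in gastrocnemius, a difference of 0.46 (SE 0.11, adjusted p = 0.157).

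The other arms of the unfolded protein response were above 0 for 17 of 25 genes in TA (median 0.17) and 21 of 25 in gastrocnemius (median 0.13). Ern1, which encodes the stress sensor IRE1, rose in cSix1 KO muscle from 8.39, 8.39 and 8.32 to 8.68, 8.72 and 8.70 (log2 fold change 0.33, SE 0.06, adjusted p = 0.0436). That call was lost without each of the 6 arrays in turn, with adjusted p from 0.0505 to 0.154, and under quantile normalization (0.0609) and median centring (0.0648) and by the methods' t-test (0.113). The chaperone partner Dnajb11 read 7.77 and 7.66 in control TA against 8.37 and 8.40 with the shRNA (log2 fold change 0.67, SE 0.12, adjusted p = 0.302). Derl1, a component of the channel that exports misfolded proteins, read 7.12 and 7.07 against 7.78 and 7.69 (0.64, SE 0.12, adjusted p = 0.319). Both were called in TA when the spread was estimated over all 10 arrays (adjusted p = 0.0361 and 0.0137). In that fit 131 genes were called in TA, against 3 as reported. The Derl1 difference between the comparisons, 0.63 (SE 0.12), had an adjusted p of 0.0729. The main chaperone Hspa5, or BiP, stood at 0.39 in TA (SE 0.11, adjusted p = 0.489) and 0.21 in gastrocnemius.

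Mitochondrial stress genes, among them proteases and chaperones, had medians of -0.07 in both muscles, with 6 of 12 above 0 in TA and 2 of 12 in gastrocnemius. None was called. The chaperonin Hspd1, the protease Lonp1 and the stress protease Oma1 stood at -0.38, -0.34 and -0.39 in TA (adjusted p = 0.501, 0.517 and 0.517). Immediate early genes were above 0 for 11 of 21 in TA (median 0.10) and 20 of 21 in gastrocnemius (median 0.20), with none called. Among them Egr1 stood at 0.66 in TA (SE 0.14, adjusted p = 0.393) and Myc at 0.54 in gastrocnemius (SE 0.13, adjusted p = 0.0960).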

How the data were processed

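The authors deposited RMA signals on a log2 scale for each probe set of each array; the submitters' processing notes name RMA and Partek without versions, and the methods and labels differ on the program, the RNA input, the kit and the age of the mice used for electroporation. For the annotation release and genome build, nothing is stated in the labels or methods. The table held 35556 probe sets, of which 21789 carried 1 gene symbol, 1621 several and 12146 none. Only those with 1 symbol were used; of several probe sets for a gene, that with the highest mean was kept. This gave 19938 genes, 19856 of them matched to RefSeq by Entrez number. The probe set shared by Phgdh and Gm6756 was left out. A check of the gene deleted in the knockout is not reported here.

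The arrays of a comparison were fitted apart from those of the other, using limma 3.58.1 (lmFit, eBayes; R 4.3.3) without a replicate block. Benjamini-Hochberg adjustment ran over all genes, and an adjusted p under 0.05 was a call. For the difference between comparisons the fit was a contrast over all 10 arrays. The fit was tested on simulated data. Tables and plots were made with Python 3.11.15, pandas 2.3.3 and matplotlib 3.10.9. Arrays give no read depth, and the number of arrays limits precision. The members and gene lists were chosen with earlier results of these data known, so no list was tested; each is given by counts and medians beside those of all genes. From the surrounding lists, genes called in either comparison were named, and otherwise up to 3 per list and comparison with the largest absolute moderated t. Alternatives were quantile normalization, median centring, a filter on dim genes, the mean over probe sets, 1 fit over all arrays, an intensity trend with robust prior, array weights, a replicate block, the methods' t-test, and leaving out each array.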

Additional observations from a re-analysis of the deposited data

How the results depend on the processing

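None of the 10 members was called in TA or for the difference under any alternative run. In gastrocnemius the number of members called was 0 in the fit reported, 1 (Psat1) with dim genes left out, with all 10 arrays in 1 fit and with an intensity trend and robust prior, 3 (Atf3, Asns and Psat1) with array weights, and 0 to 2 leaving out 1 array at a time, the 2 being Atf3 and Psat1 without the cSix1 KO array numbered 3. The filter on dim genes kept 6 members in TA, leaving out Trib3, Psat1, Sesn2 and Fgf21, and 7 in gastrocnemius. The count above 0 and the median were therefore not recomputed with this filter. Genes called in TA were 3 as reported, 10 after median centring, 131 in 1 fit over all arrays, 5 with the replicate block, 0 by the methods' t-test after adjustment and 0 without each array in turn. In gastrocnemius they were 347 as reported, 484 of 9969 with dim genes left out and 250 in 1 fit over all arrays. They were 543 with the trend, 989 with array weights and 186 with the replicate block. By the methods' t-test they were 4 after adjustment, when Gadd45a, Gadd45b, Slc43a2 and Ern1 were no longer called, and 2603 before it, with 4 members. Leaving out 1 array they were 51 to 560, the 560 being without the cSix1 KO array numbered 3. For the difference they were 29 as reported, 15 with dim genes left out, 48 with the trend and 6 to 100 leaving out 1 array. Of the genes called higher in gastrocnemius, 181 of 347 as reported became 142 of 389 after median centring.

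These directions turned. In gastrocnemius Trib3 was -0.032 after quantile normalization and -0.037 after centring, and Phgdh 0.024 with array weights. The Phgdh difference was 0.062 after quantile normalization and 0.068 after centring, and the Atf4 difference 0.032 after centring. Leaving out 1 array at a time, the log2 fold change ranged from -0.35 to 0.27 for Phgdh and from -0.11 to 0.40 for Sesn2 in TA, and in gastrocnemius from -0.072 to 0.061 for Ddit3, -0.078 to 0.098 for Trib3 and -0.091 to 0.10 for Phgdh. The difference between comparisons ranged from -0.32 to 0.30 for Phgdh, -0.036 to 0.47 for Sesn2, -0.072 to 0.14 for Fgf21, -0.14 to 0.049 for Atf4 and -0.0013 to 0.68 for Atf3. The cause of these shifts was not tested.

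The replicate numbers were checked as pairs. Deviations from the group means correlated at 0.185 for same-numbered TA arrays. With 2 arrays a group, unlike numbers must then give -0.185, so the check cannot decide on pairing in TA. In gastrocnemius the 3 same-numbered pairs correlated at 0.216, -0.137 and 0.084, and not every array correlated best with its own number. No pairing was taken as given in either muscle, although the methods place the control plasmid in the opposite leg. With the replicate block no member was called, and Ern1 was no longer called in gastrocnemius (adjusted p = 0.125); it changed no other call of a named gene.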
